A study of Homo sapiens with 6 samples.

Results

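The integrated stress response and the unfolded protein response were followed through 36 listed genes in UWB1.289, an ovarian cancer cell line of human origin that lacks BRCA1, after treatment with Olaparib, an inhibitor of the DNA repair enzymes PARP1 and PARP2. The genes were taken by name, from a list drawn up with earlier results of these data known, and each of the 36 matched 1 Ensembl identifier among the 63677 genes counted. All 36 passed the filter on low counts that left 21729 genes for testing. Poly(A) RNA was sequenced from 3 samples given 4 µM Olaparib and 3 given the solvent DMSO, all for 24 h. Both groups were the same line, whose genotype the labels give as WT. The study's methods describe the replicates as independent, and the labels mention parallel dishes for each condition. Neither says that the cells came from separate cultures, so the p-values measure the spread between these 6 samples. The design text of the series names 10 µM instead of 4 µM, and the dose in the sample labels was used.

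When a cell meets unfolded protein, amino acid shortage, double-stranded RNA or haem deficiency, a kinase phosphorylates the initiation factor eIF2, general translation slows, and translation of the ATF4 message goes up. ATF4 then switches on genes for amino acid synthesis, amino acid uptake and tRNA charging, while DDIT3, also called CHOP, joins under prolonged stress. The unfolded protein response shares one of these kinases, PERK, and adds the sensors IRE1 and ATF6, whose factors XBP1 and cleaved ATF6 raise the chaperones and the disposal machinery of the endoplasmic reticulum (ER). Because ATF4 is controlled largely in translation, its transcript is only one of the places where the response can be read.

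The sequences of both arms are shown first because the comparison asked for is between genes driven by ATF4 and genes driven by XBP1 and ATF6. RefSeq promoters of the GRCh38.p14 build, from 250 bases before to 50 bases after the start of transcription, were found for 33 of the 36 genes. The search covered both strands. The ATF4 side was searched for TGATGNAA, the core of the C/EBP-ATF response element (CARE). The ER side was searched for the ER stress response element (ERSE), which is CCAAT, 9 bases of any kind, and CCACG, and for TGACGTGG, the unfolded protein response element. PSPH, SHMT2 and SLC7A11 had no entry.

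The 5 genes with an ERSE were the sensor-arm factor XBP1 and 4 chaperones or folding factors, shown on the strand of the gene with the whole element in capitals; in CRELD2 it lay in the reverse orientation.
XBP1: ctggCCAATCGCGGAGGGCCACGaccg
HSPA5: ttcaCCAATCGGCGGCCTCCACGacgg
HSP90B1: ctgaCCAATCGGAAGGAGCCACGcttc
PDIA6: cggaCCAATGAGCCGCAGCCACGgctt
CRELD2: ctctCGTGGCGAACTCGGATTGGgcca

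The 4 genes with a CARE were 3 ATF4 targets and the ER degradation gene HERPUD1, with the 8-letter element in capitals; in all but ASNS it lay in the reverse orientation.
ASNS: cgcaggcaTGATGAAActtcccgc
SLC3A2: aggactccTTACATCAgctcc
CHAC1: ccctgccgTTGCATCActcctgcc
HERPUD1: gcggcgggTTGCATCAgcccgtgc

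Counted from the first transcribed base as 0, the first base of the ERSE lay at -52 in XBP1, -66 in HSPA5, -194 in HSP90B1, which held 2 copies of the element, -86 in PDIA6 and -80 in CRELD2. The CARE lay at -68 in ASNS, -209 in CHAC1, -176 in HERPUD1 and 37 in SLC3A2, where it was transcribed. ASNS, SLC3A2, XBP1 and PDIA6 had more than 1 promoter entry, and only 1 of them held the element. Positions for these genes are from that entry, and which start the cells used was not measured. For each arm 1 promoter is given in full upstream, as the sequence context of a gene whose values follow. The 250 bases before HSPA5 (GRCh38.p14, chr9:125241344-125241593, minus strand) are:
HSPA5 upstream: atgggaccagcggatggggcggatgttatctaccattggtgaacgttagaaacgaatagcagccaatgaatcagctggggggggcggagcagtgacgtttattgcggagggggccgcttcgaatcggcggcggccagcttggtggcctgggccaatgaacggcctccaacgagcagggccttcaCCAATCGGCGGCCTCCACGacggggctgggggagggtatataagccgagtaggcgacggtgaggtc
The 250 bases before ASNS (GRCh38.p14, chr7:97872409-97872658, minus strand) are:
ASNS upstream: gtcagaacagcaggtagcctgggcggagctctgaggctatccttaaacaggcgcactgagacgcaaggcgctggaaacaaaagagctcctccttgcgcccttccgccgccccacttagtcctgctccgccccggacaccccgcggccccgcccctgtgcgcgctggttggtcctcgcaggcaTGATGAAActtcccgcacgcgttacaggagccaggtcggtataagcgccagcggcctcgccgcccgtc

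The ERSE stood in 4 of the 10 ER chaperones and folding factors and in 0 of the 12 ATF4 targets with an entry, against 0.092% of the 27305 genes with a promoter. The CARE stood in 3 of those 12 ATF4 targets and in 0 of the 10 chaperones, against 4.46% of the 27305 genes. It was also present in 7 of the 11 genes with an entry in a list of aminoacyl-tRNA synthetases, which charge tRNAs with amino acids, and the tRNA exporter XPOT, which held none. The unfolded protein response element stood in HYOU1 alone among the 33 genes. These matches describe letters in a window of 300 bases and are not measured binding sites.

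The libraries held 35360458 to 39640775 counts, and the lowest raw count among the 36 genes in any sample was 288, for ERN1. Mitochondrial genes took 5.68% to 6.11% of the counts. Replicates numbered 1 stood further from the others of their group, with a chi-square per degree of freedom of 3.35 to 4.11, against 1.81 between DMSO 2 and 3 and 2.28 between Olaparib 2 and 3. The epithelial and Müllerian markers PAX8, KRT7, KRT8, KRT18, EPCAM and MSLN were present in all samples, with PAX8 at 11075 to 12518 normalized counts. PAX8 itself rose by 7.34% (log2 fold change 0.10, standard error 0.029, edgeR adjusted p 0.0399), close in size to the calls described here. KRT18 (0.079, edgeR adjusted p 0.0977) and EPCAM (-0.039, edgeR adjusted p 0.528) had separate groups without passing. Of the blood and endothelial markers PECAM1 was at 0 and PTPRC at 52.0 to 76.9, whereas CDH5 was at 1494 to 1680, with separate groups and lower values under Olaparib (log2 fold change -0.075, edgeR adjusted p 0.442). The part of these markers in the results was not tested. In a bulk sample, fewer cells of a type and less RNA per cell cannot be told apart.

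A normalized count here is a count divided by its library's TMM-scaled size and multiplied by the mean scaled size of 37430446. Fold changes are Olaparib against DMSO on the log2 scale, from the edgeR quasi-likelihood test fitted to all 21729 genes, with Benjamini-Hochberg adjustment over all of them, and a call is an adjusted p under 0.05. Of the 36 genes, 3 rose (ATF4, PHGDH and SLC7A5) and 0 fell. Over all genes 2.15% were called higher and 1.21% lower. The 36 are abundant genes, and among the 10046 genes at least as abundant as the lowest of them, 3.93% were called higher and 1.96% lower. None of the 36 combined an adjusted p under 0.05 with a change of more than 1.2-fold, which 1.21% of all genes did. The edgeR test gave an unadjusted p under 0.05 for 13 of the 36, 9 higher and 4 lower, against 14.8% of all genes and 21.9% of the abundant ones.

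The changes were small throughout. The 36 log2 fold changes ran from -0.14 for DDIT3 to 0.15 for CRELD2, with a median of 0.021, beside a median of -0.0042 over all genes and 0.0047 over the abundant ones. In 13 genes the 3 Olaparib samples lay wholly above (9 genes) or wholly below (4 genes) the 3 DMSO samples, as 19.3% of all genes and 25.4% of the abundant genes did. The standard errors lay between 0.026 and 0.071. The 95% interval of every one of the 36 fold changes stayed inside 1.2-fold in both directions.

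**Figure D1:**
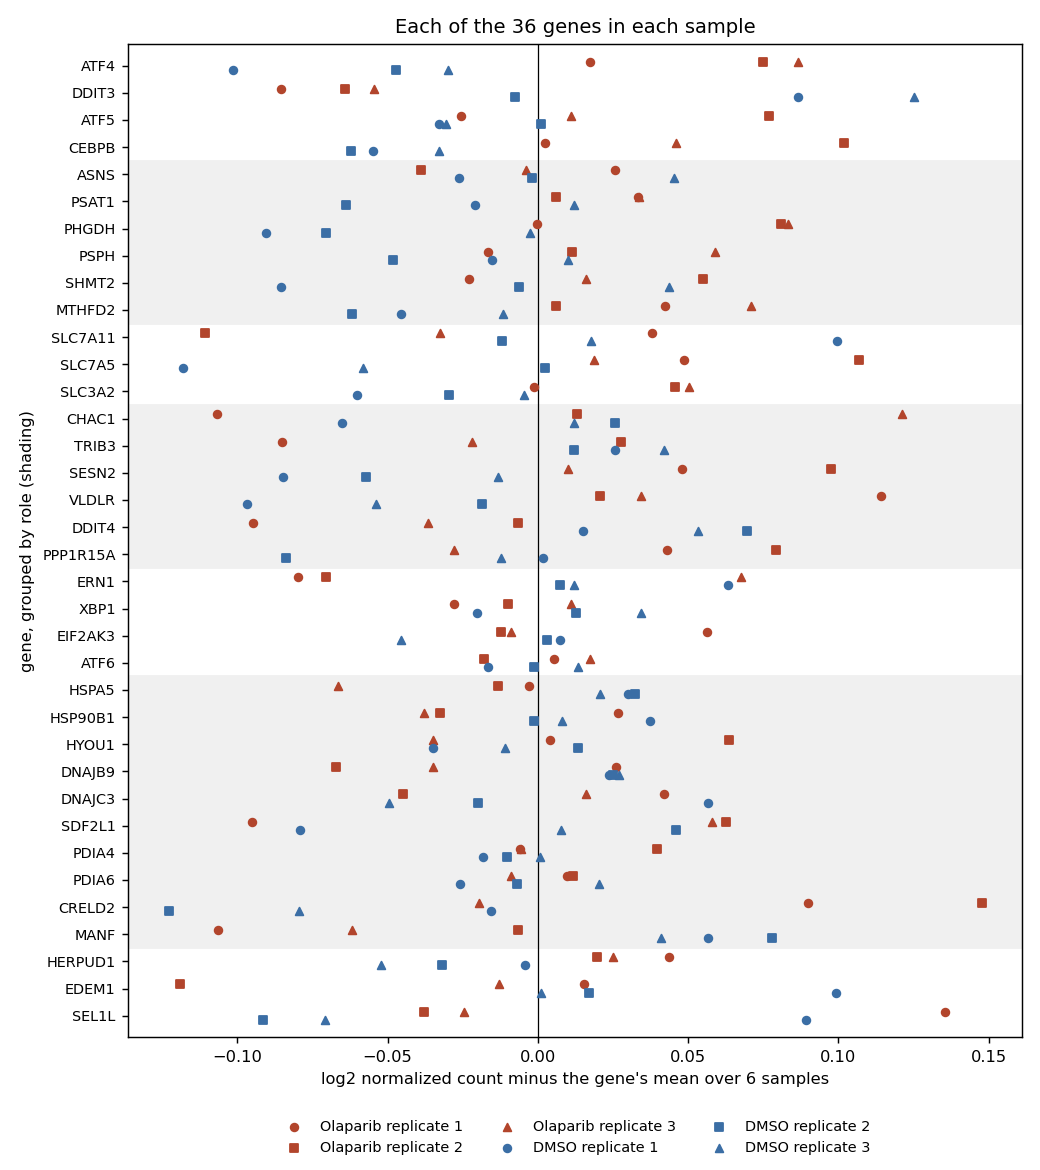
Each row is 1 of the 36 genes and each point 1 sample, Olaparib in red and DMSO in blue with a marker for each replicate number; the horizontal axis is the log2 normalized count minus the gene's mean over the 6 samples, and shading separates the role groups. Red and blue points separate for 13 of the 36 genes, among them ATF4, PHGDH and SLC7A5 to the right and DDIT3, DDIT4, HSPA5 and MANF to the left.

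Transcript levels per length set these small changes against large differences between the genes. As normalized counts per kilobase of merged exons, averaged over the 6 samples, the levels ran from 16.2 for ERN1, which encodes the sensor IRE1, to 7309 for PDIA6, a protein disulfide isomerase. PDIA6 was followed by DDIT4 at 6156, PSAT1 at 4933, HSP90B1 at 4465, PDIA4 at 4125 and ATF4 at 4036. Among the 4 transcription factors of the integrated stress response, ATF4 stood at 4036 per kilobase, CEBPB at 1612, ATF5 at 702 and DDIT3 at 636. On this scale the sensors were low, with EIF2AK3 (PERK) at 45.4 and ATF6 at 313 per kilobase, while XBP1 stood at 1321. The order depends on the merged length of all annotated exons, which was 4096 bases for PDIA6, 13092 for HSP90B1, 19153 for ERN1 and 20691 for EIF2AK3. Before division by length HSP90B1 was above PDIA6, at 58455 against 29939 normalized counts. Which exons the cells used was not measured, so the lead of PDIA6 and the low place of the sensors hold for this scale only. Reads that map to several places can also move such levels, and close neighbours in this order should not be ranked.

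**Figure D2:**
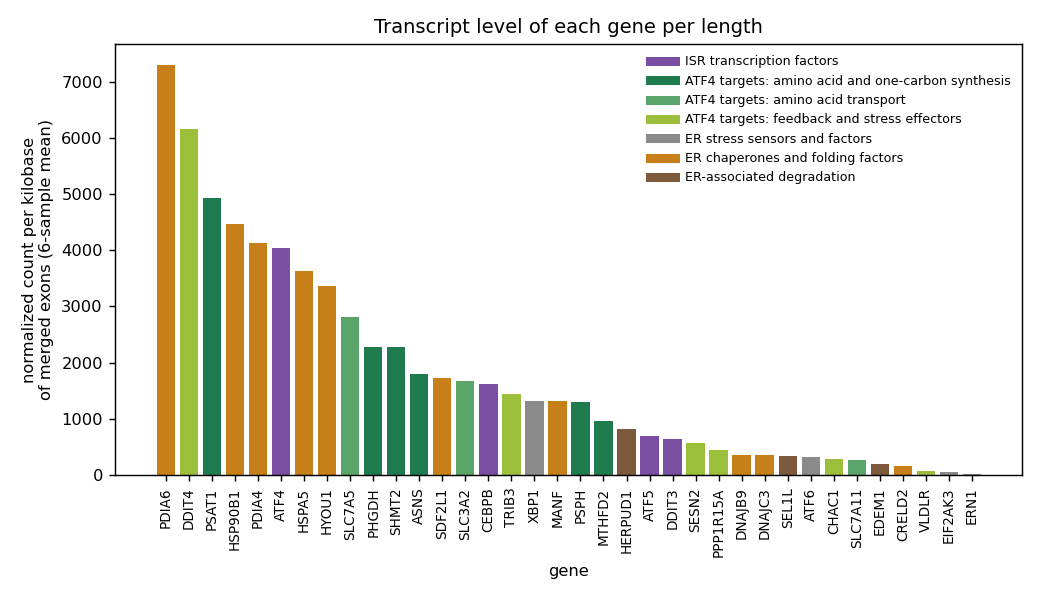
Bars give the mean over all 6 samples of the normalized count per kilobase of merged exons for each of the 36 genes, in falling order, on a linear axis that starts at 0 and with colours for the role groups. PDIA6 at 7309 and DDIT4 at 6156 lead, and EIF2AK3 at 45.4 and ERN1 at 16.2 close the order.

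ATF4, the central factor, rose. Its gene lies on chromosome 22 from 39519695 to 39522683 (GRCh38, GENCODE 44). Normalized counts were 10664, 11096 and 11186 in Olaparib samples 1 to 3 and 9819, 10197 and 10319 in the DMSO samples. All Olaparib samples were above all DMSO samples, and the lowest Olaparib value was that of sample 1. The increase was 8.60%, or 0.12 on the log2 scale with a standard error of 0.030 and an adjusted p of 0.0158 in edgeR. Leaving out any of 4 libraries ended the call. The adjusted p was 0.0618 without Olaparib 2, 0.123 without Olaparib 3, 0.105 without DMSO 1 and 0.0645 without DMSO 2. Reads counted to processed copies named after ATF4 came to 0.0411% of its own.

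DDIT3, the factor of prolonged stress, went the other way without passing the test. Its normalized counts were 782, 794 and 799 under Olaparib and 881, 826 and 905 under DMSO. The groups did not overlap, with all 3 Olaparib samples low. The log2 fold change was -0.14 with a standard error of 0.049 and an adjusted p of 0.129 in edgeR. Of its merged exon sequence 31.6% overlaps exons of MARS1 or MBD6 on the other strand, and whether the counting used strand is not given in the sources used here, so reads from those genes cannot be told apart from its own. As a ratio within each sample, chosen after the values were seen and given without a test, ATF4 stood at 13.6, 13.98 and 14 times DDIT3 in normalized counts under Olaparib and at 11.1, 12.3 and 11.4 times under DMSO.

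The other factors of this group, CEBPB and ATF5, did not pass with all 6 samples. CEBPB, a partner of ATF4 in C/EBP-ATF dimers, was at 2967, 3179 and 3058 normalized counts under Olaparib and 2851, 2837 and 2895 under DMSO. Its groups were apart, with a log2 fold change of 0.10, a standard error of 0.038 and an adjusted p of 0.171 in edgeR. Without both samples numbered 1, an alternative chosen after seeing the data, the edgeR adjusted p was 0.0468. ATF5, which is translated under the same control as ATF4, had a log2 fold change of 0.042 with overlapping groups, and 19.5% of its exon sequence overlaps other genes.

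Genes that ATF4 is known to drive were then taken by function. Of 6 genes for amino acid and one-carbon synthesis, 1 rose and 0 fell. PHGDH, the first enzyme of serine synthesis, lies on chromosome 1 from 119648411 to 119744218. It was at 20890, 22100 and 22139 normalized counts under Olaparib and 19626, 19900 and 20860 under DMSO. Olaparib 1 and DMSO 3 nearly met, and the other Olaparib samples stood clear of DMSO. The increase was 7.85%, with a log2 fold change of 0.11, a standard error of 0.029 and an adjusted p of 0.0280 in edgeR. That adjusted p went to 0.115 without Olaparib 2, 0.199 without Olaparib 3, 0.169 without DMSO 1 and 0.155 without DMSO 2.

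The enzymes next to PHGDH in serine synthesis did not pass. PSAT1, the aminotransferase of the second step, stood at 0.048 on the log2 fold scale (edgeR adjusted p 0.464) and PSPH, the phosphatase of the last step, at 0.036 (edgeR adjusted p 0.720). MTHFD2, the mitochondrial folate dehydrogenase, was at 11231, 10953 and 11456 normalized counts under Olaparib and 10569, 10448 and 10819 under DMSO. Its groups were apart, and its log2 fold change of 0.079 had an adjusted p of 0.141 in edgeR. With a replicate block in edgeR the adjusted p was 0.0209. That block joins samples of the same number, for which no pairing is stated, so it carries little weight. Of the MTHFD2 exon sequence 14.1% overlaps other genes on the other strand. SHMT2, which feeds the same mitochondrial one-carbon pathway from serine, had a log2 fold change of 0.031 with overlapping groups. ASNS, asparagine synthetase and the textbook carrier of a CARE, was at 8928, 8536 and 8746 under Olaparib and 8611, 8758 and 9049 under DMSO. The highest ASNS value was a DMSO sample and the lowest an Olaparib sample. Its log2 fold change was -0.012 (standard error 0.030), with a 95% interval from -0.073 to 0.050. Reads counted to pseudogenes named after ASNS came to 1.21% of its own.

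Of the 3 amino acid transport genes 1 rose and 0 fell. SLC7A5, the light chain of the LAT1 exchanger for large neutral amino acids, lies on chromosome 16 from 87830023 to 87869507. It was at 13865, 14438 and 13580 normalized counts under Olaparib and 12352, 13428 and 12877 under DMSO. The lowest Olaparib sample, 3, was just above the highest DMSO sample, 2. The increase was 8.33%, with a log2 fold change of 0.12, a standard error of 0.031 and an adjusted p of 0.0272 in edgeR. Without Olaparib 2 the adjusted p was 0.165, without DMSO 1 it was 0.205 and without DMSO 3 it was 0.103. It was 0.0921 without both samples numbered 1. Reads counted to the pseudogene SLC7A5P1 came to 0.333% of those of SLC7A5. How reads shared between these copies were split or dropped is not known, so that share does not bound the uncertainty of the SLC7A5 level.

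SLC3A2, the heavy chain that pairs with SLC7A5 and with SLC7A11, was at 10686, 11039 and 11074 normalized counts under Olaparib and 10258, 10480 and 10661 under DMSO. Its groups were just apart and its log2 fold change of 0.063 had an adjusted p of 0.282 in edgeR. SLC7A11, the cystine importer, had a log2 fold change of -0.069 with overlapping groups and an adjusted p of 0.479 in edgeR.

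The 6 feedback and effector genes gave 0 calls in either direction in edgeR, DESeq2 or limma voom. In edgeR 2 had an unadjusted p under 0.05 with higher values and 1 with lower. The share with such a p, in either direction, was 14.8% of all genes and 21.9% of abundant genes. SESN2, an inhibitor of mTORC1 signalling, was at 2056, 2127 and 2002 normalized counts under Olaparib and 1875, 1911 and 1970 under DMSO. VLDLR, a lipoprotein receptor, was at 1156, 1083 and 1093 under Olaparib and 998.5, 1054 and 1029 under DMSO. The groups were apart for both genes. SESN2 had a log2 fold change of 0.10 and an edgeR adjusted p of 0.193, and VLDLR had 0.11 and 0.210.

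DDIT4, another inhibitor of mTORC1, was the one gene of the 15 listed ATF4 targets with separate groups in the lower direction. DDIT3, grouped here with the factors and joined to the targets in a wider list, also had them. The DDIT4 values were as follows. DDIT4 was at 12200, 12967 and 12703 normalized counts under Olaparib and 13165, 13671 and 13518 under DMSO. Its log2 fold change was -0.092 with a standard error of 0.029 and an adjusted p of 0.0767 in edgeR. The call depended on the setting. The edgeR adjusted p was 0.0427 with upper quartile scaling, 0.0456 without the filter on low counts and 0.0491 without Olaparib 2. It was 0.00552 with the replicate block, which rests on sample numbers that share no stated pairing. CHAC1, which degrades glutathione, TRIB3, a pseudokinase that restrains ATF4, and PPP1R15A, the phosphatase subunit that reverses eIF2 phosphorylation, had overlapping groups and log2 fold changes of 0.020, -0.052 and 0.063.

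**Figure D3:**
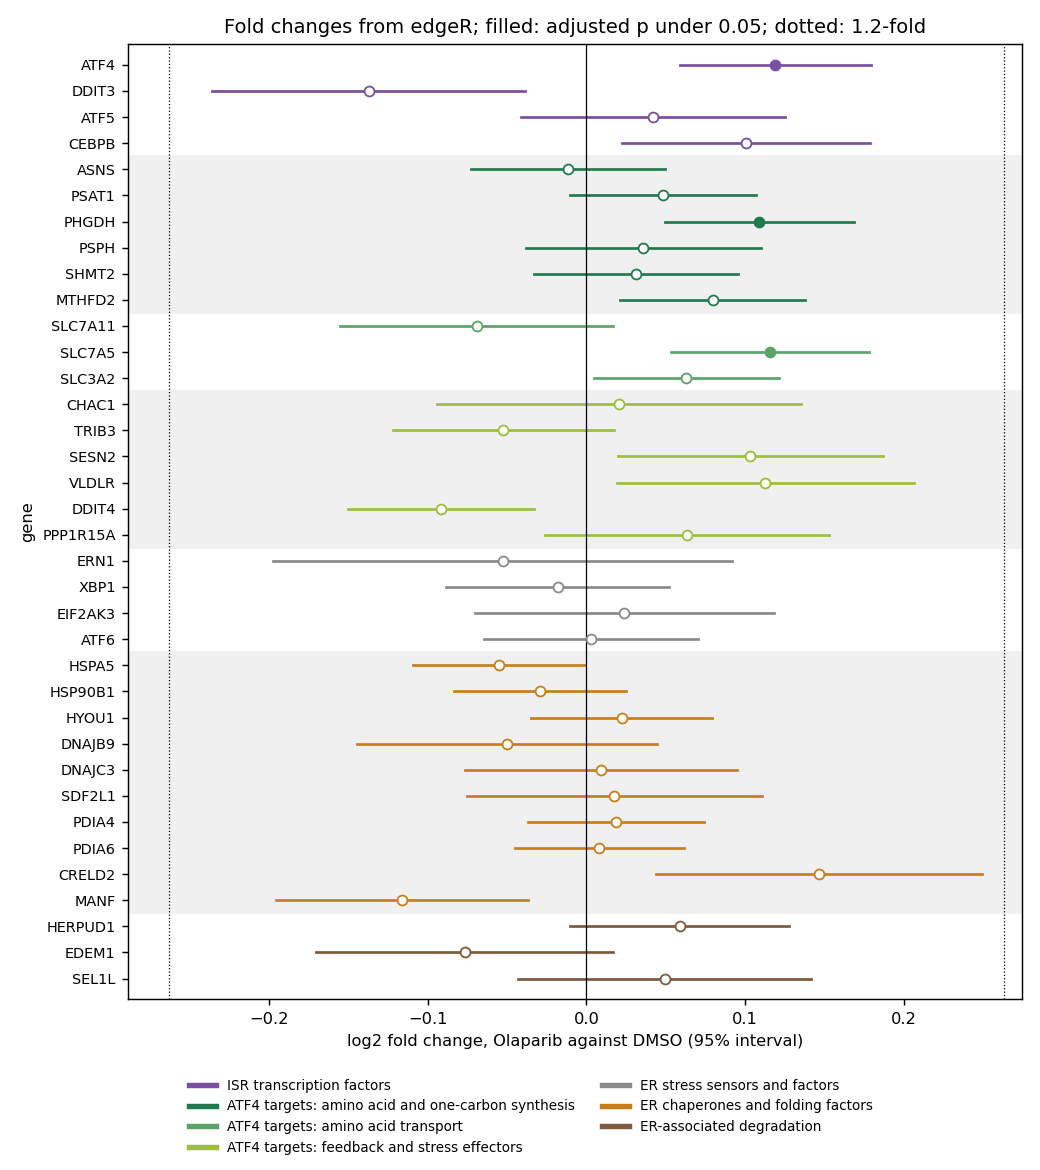
Points give the log2 fold change of Olaparib against DMSO for each of the 36 genes from edgeR with 95% intervals, coloured by role, filled where the adjusted p is under 0.05 and with dotted lines at 1.2-fold. ATF4, PHGDH and SLC7A5 are filled, all to the right of 0, and no interval reaches a dotted line.

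On the ER side, 0 of the 4 genes for sensors and their factors passed in edgeR, DESeq2 or limma voom. An unadjusted p under 0.05 in edgeR was held by 0 of the 4, beside 14.8% of all genes and 21.9% of abundant genes. XBP1 was at 3924, 3974 and 4031 normalized counts under Olaparib and 3945, 4036 and 4097 under DMSO. Its groups overlapped, with a log2 fold change of -0.018 and a 95% interval from -0.088 to 0.052. The counts are of the whole gene, so the spliced form that encodes the active factor was not separated. ATF6 had a log2 fold change of 0.0030 and EIF2AK3 one of 0.024. ERN1, the least abundant of the 36 genes at 294 to 325 normalized counts, had one of -0.053 with the widest standard error, 0.071.

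Of the 10 ER chaperones and folding factors, 0 passed in either direction in edgeR, DESeq2 or limma voom. In edgeR 1 had an unadjusted p under 0.05 with higher values (CRELD2) and 2 with lower values (HSPA5 and MANF). Such a p, in either direction, was held by 14.8% of all genes and 21.9% of abundant genes. HSPA5, the master chaperone BiP, was at 23606, 23434 and 22586 normalized counts under Olaparib and 24148, 24187 and 23994 under DMSO. All Olaparib samples were below all DMSO samples, most of all sample 3. The log2 fold change was -0.055 with a standard error of 0.027 and an adjusted p of 0.327 in edgeR. HSP90B1, the ER form of HSP90 also called GRP94, was at 59528, 57138 and 56926 under Olaparib and 59979, 58385 and 58774 under DMSO. Its groups overlapped, and its log2 fold change was -0.029 with a 95% interval from -0.083 to 0.025.

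MANF and CRELD2, secreted ER proteins that are both induced in ER stress, had opposite signs. MANF was at 2605, 2792 and 2687 normalized counts under Olaparib and 2917, 2960 and 2886 under DMSO, with all Olaparib samples low. Its log2 fold change was -0.12, with a standard error of 0.039 and an adjusted p of 0.105 in edgeR. The edgeR adjusted p was 0.0367 with the replicate block, again on numbers that share no stated pairing. CRELD2 was at 898, 934 and 832 under Olaparib and 834, 775 and 798 under DMSO, where Olaparib 3 lay just below DMSO 1. Its log2 fold change was 0.15, the highest of the 36, with a standard error of 0.050 and an adjusted p of 0.115 in edgeR. The ratio of CRELD2 to MANF, chosen after the values were seen and given without a test, was 0.345, 0.335 and 0.310 under Olaparib and 0.286, 0.262 and 0.277 under DMSO.

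The remaining folding factors lay close to 0 with overlapping groups. HYOU1, an exchange factor and chaperone of the HSP70 family, had a log2 fold change of 0.022, and the disulfide isomerases PDIA4 and PDIA6 had 0.019 and 0.0081. SDF2L1 and DNAJC3, which work with BiP, had 0.018 and 0.0089, and the BiP co-chaperone DNAJB9 had -0.050. For PDIA6, the most abundant of the 36 per length, the 95% interval ran from -0.045 to 0.061. Of its exon sequence 25.2% overlaps ATP6V1C2 on the other strand, so its level and change share the limit given for DDIT3. The signs of PDIA6, DNAJC3, SDF2L1, HYOU1 and ATF6 turned when 1 library was left out, and those of PDIA6, DNAJC3 and ATF6 also under upper quartile scaling.

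The 3 genes of ER-associated degradation gave 0 calls in edgeR, DESeq2 or limma voom. An unadjusted p under 0.05 in edgeR was held by 0 of the 3, beside 14.8% of all genes and 21.9% of abundant genes. HERPUD1, a membrane organiser of the disposal complex, was at 4283, 4213 and 4228 normalized counts under Olaparib and 4144, 4065 and 4008 under DMSO. Its groups were apart, with a log2 fold change of 0.059 and an adjusted p of 0.442 in edgeR. SEL1L, the partner of the ubiquitin ligase HRD1, was at 3575, 3170 and 3200 under Olaparib and 3462, 3055 and 3099 under DMSO. The samples numbered 1 were the highest of both groups for SEL1L, and its log2 fold change was 0.049. EDEM1, which recognises misfolded glycoproteins, had a log2 fold change of -0.077 with overlapping groups.

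Set side by side, the 15 ATF4 targets had 2 calls higher and 0 lower and the 10 ER chaperones had 0 and 0, beside the 2.15% of all genes and 3.93% of abundant genes called higher. The 2 calls went to 0 without Olaparib 2 or without DMSO 1, and to 1 without Olaparib 3, DMSO 2 or DMSO 3. The median log2 fold change was 0.048 for the ATF4 targets, where 11 of 15 were positive, and 0.0085 for the chaperones, where 6 of 10 were positive. As shares these counts were 73.3% and 60%, beside 48.6% of all genes and 52.8% of abundant genes with a positive sign. The difference between the 2 medians was 0.040. It was 0.033 when DDIT3 and ATF5 joined the ATF4 targets and the degradation genes the chaperones. With 1 library left out in turn, the difference ran from 0.034 (without DMSO 2) to 0.063 (without DMSO 3). The chaperone median was then negative without any 1 of the Olaparib libraries and without DMSO 1, where it was -0.0076, and reached 0.0038 without DMSO 2. No test was run on this difference, because the lists were drawn up with results of these data known.

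List means over the same samples showed the same small scale. For the ATF4 targets the mean log2 normalized count, taken relative to the mean over the 6 samples, was 0.0043, 0.026 and 0.025 in the Olaparib samples and -0.038, -0.023 and 0.0053 in the DMSO samples. DMSO 3 was thus above Olaparib 1 and the groups overlapped. For the chaperones the values were -0.0012, 0.016 and -0.020 under Olaparib and 0.0030, 0.0033 and -0.0015 under DMSO, and the DMSO values lay inside the Olaparib range.

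**Figure D4:**
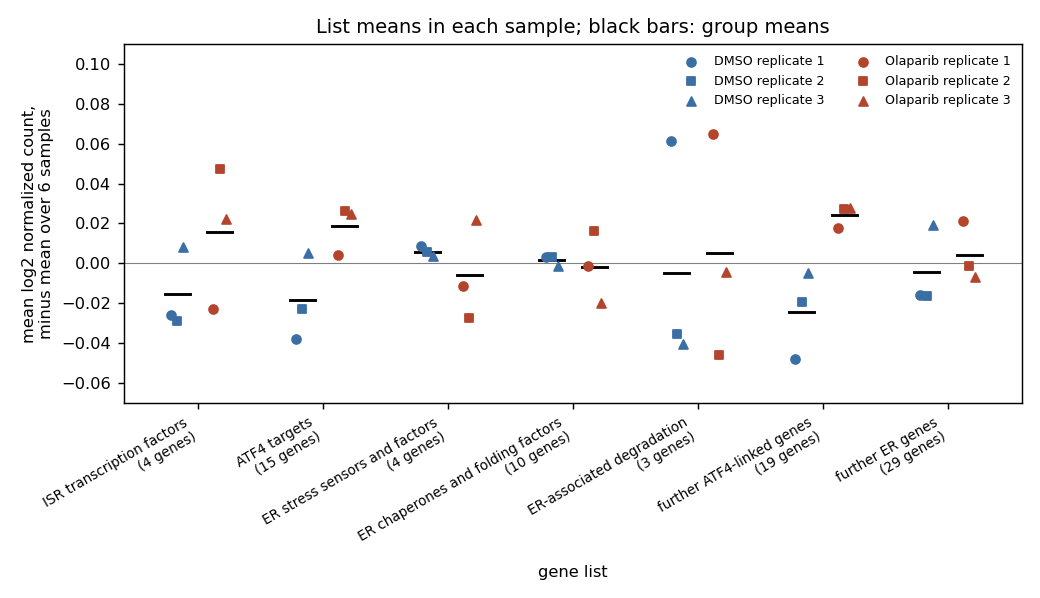
Points give, for each of 7 gene lists and each sample, the mean log2 normalized count of the list minus its mean over the 6 samples, with DMSO in blue, Olaparib in red and black bars at the group means. The ATF4 targets run from -0.038 to 0.026 with DMSO 3 above Olaparib 1, and the ER chaperones stay between -0.020 and 0.016 with the groups mixed.

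The elements are set beside the calls as a description. Neither a CARE nor an ERSE was found in the windows of ATF4, PHGDH and SLC7A5, the 3 genes that rose. Of the 4 genes with a CARE, 0 passed in edgeR, DESeq2 or limma voom, with log2 fold changes of -0.012 for ASNS, 0.020 for CHAC1, 0.059 for HERPUD1 and 0.063 for SLC3A2, the last being the one of these with an unadjusted p under 0.05. Of the 5 genes with an ERSE, 0 passed in the same tests, with values from -0.055 for HSPA5 to 0.15 for CRELD2, these being the 2 with an unadjusted p under 0.05. In edgeR 3.36% of all genes and 5.89% of abundant genes were called in either direction. An unadjusted p under 0.05 was held by 14.8% and 21.9%. Beside those shares, 0 calls among 4 or 5 genes is not a result about the elements. No match in these 300 bases says nothing of elements elsewhere.

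**Figure D5:**
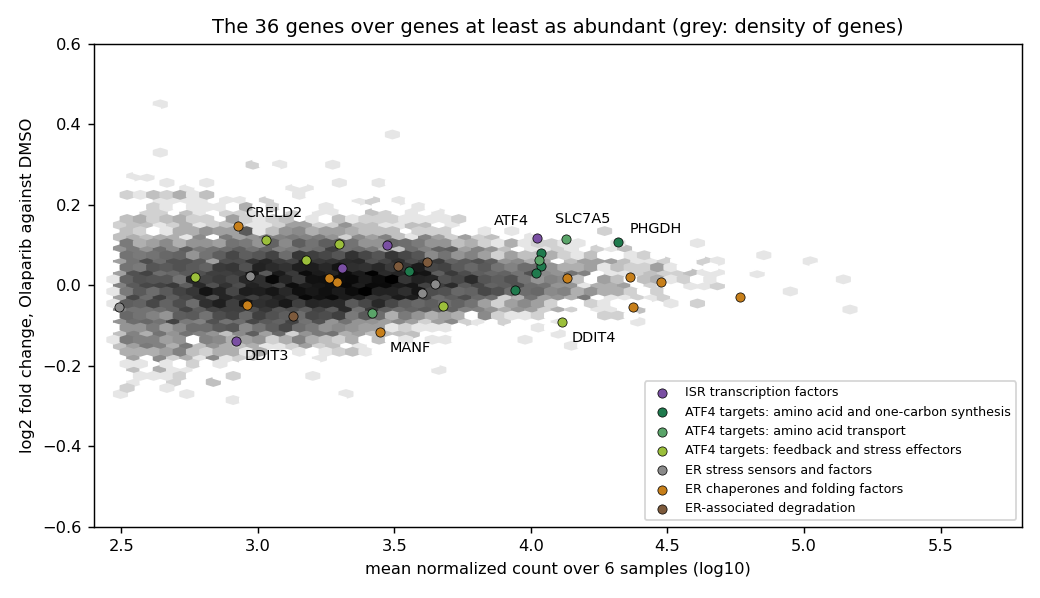
The horizontal axis is the mean normalized count over the 6 samples on a log10 scale and the vertical axis the log2 fold change of Olaparib against DMSO; grey shading is the density of the 10046 genes at least as abundant as ERN1 (8 of them lie outside the axis) and coloured points are the 36 genes by role. ATF4, SLC7A5, PHGDH and CRELD2 are labelled above 0 and DDIT3, DDIT4 and MANF below 0. The log2 fold changes of the 10046 genes ran from -1.27 to 1.05, and 3.93% of these genes were called higher and 1.96% lower.

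Beyond the 36, 73 further genes of these pathways were examined in 4 lists, and 1 rose and 0 fell. That is 1.37% higher, below the 2.15% of all genes and the 3.93% of abundant genes called higher. EIF2AK2 encodes PKR, the eIF2 kinase that senses double-stranded RNA and is itself an interferon-induced gene. It was at 5618, 5834 and 5864 normalized counts under Olaparib and 5400, 4932 and 5144 under DMSO, with all Olaparib samples high. The increase was 11.9%, with a log2 fold change of 0.16, a standard error of 0.034 and an adjusted p of 0.00386 in edgeR. Without DMSO 2 the adjusted p was 0.0905. The list that EIF2AK2 belongs to also holds the kinases EIF2AK1 and EIF2AK4, eIF2, its exchange factor eIF2B and the phosphatase subunit PPP1R15B. PERK and PPP1R15A are not in that list, being among the 36. Its 12 genes had a median log2 fold change of 0.0022.

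The other lists gave 0 calls in edgeR. The 13 aminoacyl-tRNA synthetase and tRNA export genes had a median of 0.024 on the log2 fold scale, with 1 at an unadjusted p under 0.05. The 29 further ER genes had a median of 0.0046, with 1 higher and 2 lower at an unadjusted p under 0.05. The 19 further ATF4-linked genes had a median of 0.038, with 14 positive and 5 higher and 0 lower at an unadjusted p under 0.05. Positive signs were held by 48.6% of all genes and 52.8% of abundant genes. An unadjusted p under 0.05 in edgeR, in either direction, was held by 14.8% of all genes and 21.9% of abundant genes. Over all 73 genes the median was 0.017, and the count of calls higher was 2 in DESeq2 and 3 in limma voom.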

How the data were processed

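RNA from UWB1.289 cells was sequenced by the authors as stranded poly(A) libraries. Per the study's methods, adapters were trimmed with Trimmomatic, reads were mapped to GRCh38 with STAR and assigned to genes with featureCounts. The values used here are the raw counts the authors deposited, 1 per gene and sample, in 6 samples of 35360458 to 39640775 counts. Strand setting and treatment of multi-mapping reads are not given in the sources used here. Groups came from the sample labels.

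Genes with more than 10 counts in total were kept, as in the study, and tested with edgeR 4.0.16 (R 4.3.3) by glmQLFit and glmQLFTest with TMM scaling and no replicate block. Intervals are at 95%. Alternatives were DESeq2 1.42.0, limma 3.58.1 (voom), other scalings and filters, a replicate block and leaving out each sample. The scripts were tested on simulated counts. With 3 samples against 3 an exact permutation test cannot go below 0.1 and was not used. Gene positions and exon lengths came from GENCODE 44, which held 81.9% of the identifiers, and promoters from RefSeq. The members and lists were chosen with earlier results of these data known. All 36 members are named, and of the other lists any gene with an adjusted p under 0.05, to at most 6 per list and direction. Protein sequences were not analysed here.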

Additional observations from a re-analysis of the deposited data

How the results depend on the processing

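The 3 calls among the 36 genes were each lost in some of the fits with 1 sample left out, and why was not tested. Over all such fits the log2 fold change ran from 0.10 to 0.14 for ATF4, 0.093 to 0.14 for PHGDH and 0.088 to 0.15 for SLC7A5. Leaving out each sample in turn gave 0 to 3 members higher and 0 to 1 lower. The 0 higher came without Olaparib 2 and without DMSO 1. ATF4 targets then gave 0 to 2 higher and 0 to 1 lower, and the other pathway genes 0 to 2 higher. Lower calls appeared under upper quartile scaling (1 member, 1 ATF4 target), without the filter (1 and 1) and with the replicate block (2 and 1, and 1 chaperone). The block gave 4 members higher; the numbers share no stated pairing, and deviations of same-numbered samples correlated at -0.152, 0.185 and -0.214 over 13120 genes. The other pathway genes gave 2 higher in DESeq2, 3 in limma voom, 3 without the filter, 3 with the robust fit and 4 with the block. Without both samples numbered 1, chosen after seeing the data, they gave 4, and the ATF4 targets 1. The cause was not tested. Leaving out each sample moved the chaperone median between -0.0076 and 0.0038 and the difference of medians between 0.034 and 0.063. The 9-letter element TGATGCAAT was in 0 members. With an adjusted p under 0.05, 0 members passed 1.2-fold under any alternative run, and 0 passed thresholds of 1.1 or 1.5.

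Some signs turned. Under upper quartile scaling the log2 fold change was -0.0060 for ATF6, -0.00021 for DNAJC3 and -0.00096 for PDIA6. Without both samples numbered 1 it was -0.0061 for ATF6 and -0.0053 for PDIA6. With each sample left out in turn, ASNS ran from -0.025 to 0.0068, SHMT2 from -0.00064 to 0.060, CHAC1 from -0.040 to 0.078, ATF6 from -0.0067 to 0.013, HYOU1 from -0.0041 to 0.043, DNAJC3 from -0.016 to 0.041, SDF2L1 from -0.014 to 0.069, PDIA6 from -0.00081 to 0.019 and SEL1L from -0.0066 to 0.11. DESeq2, limma voom, size factors, filterByExpr and the robust fit changed the call and the sign of 0 of the 37 named genes. Depth limits the scarcest genes, since counting error alone gives ERN1 a log2 standard error of 0.067, against its fitted 0.071, and ATF4 0.011 against 0.030.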

Other observations

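MTHFD1L and ALDH1L2, enzymes of mitochondrial one-carbon metabolism like MTHFD2, stood nearest to the threshold among the further ATF4-linked genes and were singled out after their values were seen. Their log2 fold changes were 0.13 (standard error 0.039, adjusted p 0.0502) and 0.14 (standard error 0.043, adjusted p 0.0536) in edgeR. NUPR1, a stress-induced chromatin regulator, had 0.12 with an adjusted p of 0.117, and PYCR1, a proline synthesis enzyme, 0.096 with an adjusted p of 0.0801. All 3 Olaparib samples were above all 3 DMSO samples for each of these 4 genes. They were the only ones of the 19 with separate groups, and all 4 are named here with their values known. That is 21.1% of the list, beside 19.3% of all genes and 25.4% of abundant genes with separate groups in either direction. Of the PYCR1 exon sequence 29.7% overlaps other genes, and 14.1% does so on the same strand. Reads from there cannot be told apart from its own. A CARE was in the RefSeq promoter windows of 7 of the 15 genes of this list with an entry, MTHFD1L among them. ATF3, CEBPG, JDP2, SLC1A4, SLC1A5 and SLC7A1 also held it. Their log2 fold changes ran from -0.037 for CEBPG to 0.038 for SLC1A5. The 9-letter element TGATGCAAT was in 1 of the 15, MTHFD1L.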
